A study of Rattus norvegicus with 8 samples.

Results

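Platelet and megakaryocyte genes were examined in whole blood of hypertensive rats before and after administration of Chios mastic gum (CMG), the resin of *Pistacia lentiscus* var. *Chia*. The 39 genes were listed by name for their known roles in platelets and megakaryocytes, and 35 of them were found among the 17446 genes counted. No counts of Itga2b, Gp6, Tubb1 and Mmrn1 were analysed here. All animals were male wild type Wistar rats of 12 to 14 weeks of age. In the AngII model, angiotensin II (0.4 mg/kg/day) was infused by an osmotic minipump, and blood was collected at week 1, before CMG, and at week 5, when CMG (220 mg/kg) had been given daily for 4 weeks. In the DOCA–HS model, deoxycorticosterone acetate (DOCA, 100 mg/kg) was injected weekly and the drinking water held 0.9% NaCl and 1% KCl, with blood collected at week 3, before CMG, and at week 7, after the same 4 weeks of CMG. Each of the 4 groups had 2 libraries. No control group without CMG was analysed here, so after against before also holds 4 further weeks of the model. The labels number the libraries of a group without saying that they came from different rats, so the p-values measure the spread between these libraries, which may be technical.

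Platelets are cell fragments without a nucleus that megakaryocytes shed in the bone marrow, and their RNA was made by the megakaryocyte and carried into the blood. At a wound, glycoprotein receptors hold platelets on von Willebrand factor and collagen, nucleotide receptors and thromboxane amplify the activation, and granules release chemokines, clotting factors and matrix proteins. In whole blood, platelet RNA is measured together with the far larger amount of red cell RNA and with the RNA of leukocytes. A bulk measurement cannot tell fewer platelets from less RNA per platelet.

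The libraries held between 4149104 and 13205565 counts, of which 61.9% to 84.3% fell on 2 hemoglobin genes. Outside these genes, the totals lay between 651764 and 4490083 counts, with the lowest in DOCA–HS after replicate 2. In that library 2686 genes had at least 10 counts, against 6097 to 8280 in the others, and some platelet genes, such as Gp1ba with 4 counts, rest on few reads. Its platelet gene counts summed to 6684, against 7472 and 8001 in AngII replicate 2 before and after CMG. Markers of erythroid cells, neutrophils, monocytes, T cells and B cells were counted in all 8 libraries. The B cell markers in DOCA–HS after replicate 2 summed to only 57 counts. Levels are normalized CPM, with the library total scaled by the TMM factor (0.343 to 1.88 over the 8 libraries), and values of 1 gene are compared between libraries, not between genes.

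The defining markers of platelets were detected in every library. The 39 genes include the 12 defining platelet markers Pf4, Ppbp, Itga2b, Gp1ba, Gp1bb, Gp5, Gp6, Gp9, Tubb1, Treml1, Clec1b and Mmrn1, of which 8 were among the counts. Gp1bb had 0 counts in all libraries, which allows at most 3 counts a library, or 0.166 to 2.11 CPM, and Gp5 had between 0 and 4. The other 6, Pf4, Ppbp, Gp1ba, Gp9, Treml1 and Clec1b, were detected in all 8 libraries. The 35 genes made up between 0.256% and 1.34% of the counts outside hemoglobin. Of these genes, 25 had a mean of at least 50 counts and 6 had a mean below 10 (Gp1bb, Gp5, Selp, P2ry1, Sparc and Pdgfa). The low-count filter left 28 genes for the test of the AngII model, and 31 for DOCA–HS and for the fits over all 8 libraries. Of the 35 genes, 16 are also expressed by leukocytes, among them Fermt3, Rasgrp2, Plek, Tgfb1 and Tbxas1, so their counts are not from platelets alone.

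Features of the promoters are shown because GATA and ETS proteins are among the known transcription factors of megakaryocytes. Their bearing on the levels in these libraries was not tested. Promoter sequences were taken from RefSeq on the GRCr8 assembly, as the 250 bases before a gene start, while the reads had been aligned to rn6, so the coordinates belong to GRCr8 only. Of the 39 symbols, 28 had an entry, with 29 start sites, the 4 genes without counts among them. The GATA letters, NGATAN with A or T as the first N and A or G as the last, on either strand, were found in 12 of the 29 windows (41.4%) and in 27% of all 33469 windows of the table. The letters of the core that ETS proteins recognise, NNGGAAG with A or C as each N, on either strand, were found in 15 of the 29 (51.7%) and in 25.4% of all windows. Both kinds were present in 7 of the 29 (24.1%) against 6.34% of all windows. Such a match is a description of the letters in the window, and 5 promoters of platelet genes with and without matches follow, written 5′ to 3′ on the strand of the gene with the matches in capitals.
Gp1ba, chr10:55851309-55851558, plus strand, 3 GATA and 1 ETS match: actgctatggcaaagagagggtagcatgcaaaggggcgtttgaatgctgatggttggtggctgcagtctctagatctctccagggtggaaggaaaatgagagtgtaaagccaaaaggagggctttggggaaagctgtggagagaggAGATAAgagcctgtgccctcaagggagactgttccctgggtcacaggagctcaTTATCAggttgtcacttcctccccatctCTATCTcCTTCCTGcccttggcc
Clec1b, chr4:164533859-164534108, plus strand, 1 GATA and 2 ETS matches: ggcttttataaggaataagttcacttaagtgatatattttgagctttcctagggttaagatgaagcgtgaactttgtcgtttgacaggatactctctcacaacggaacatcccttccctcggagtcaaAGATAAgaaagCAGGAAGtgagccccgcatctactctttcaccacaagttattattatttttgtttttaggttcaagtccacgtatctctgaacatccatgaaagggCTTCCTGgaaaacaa
Alox12, chr10:55469200-55469449, minus strand, 1 GATA and 1 ETS match that overlap: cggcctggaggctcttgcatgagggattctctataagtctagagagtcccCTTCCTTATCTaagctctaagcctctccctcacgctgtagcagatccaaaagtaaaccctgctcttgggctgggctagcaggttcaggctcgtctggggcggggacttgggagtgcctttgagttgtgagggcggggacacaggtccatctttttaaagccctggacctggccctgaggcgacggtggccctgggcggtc
Gp9, chr4:121792592-121792841, plus strand, 0 GATA and 2 ETS matches: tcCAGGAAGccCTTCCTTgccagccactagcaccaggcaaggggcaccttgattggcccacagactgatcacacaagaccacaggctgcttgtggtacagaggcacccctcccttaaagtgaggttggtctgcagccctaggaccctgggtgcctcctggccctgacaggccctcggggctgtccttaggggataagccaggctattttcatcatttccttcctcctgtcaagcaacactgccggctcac
Treml1, chr9:20139934-20140183, minus strand, no match: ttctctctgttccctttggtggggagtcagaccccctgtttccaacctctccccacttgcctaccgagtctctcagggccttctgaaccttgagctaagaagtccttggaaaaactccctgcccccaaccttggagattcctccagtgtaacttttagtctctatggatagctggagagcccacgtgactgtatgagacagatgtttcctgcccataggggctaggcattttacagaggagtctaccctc

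The platelet genes split the AngII libraries by replicate number, before as well as after CMG. The summed level of the platelet markers was 766 CPM in replicate 1 and 224 CPM in replicate 2 before CMG, and 663 CPM and 69.5 CPM after it. Replicate 1 was thus high and replicate 2 low at both times, and the before and after values overlapped. Of the 31 platelet genes tested in all libraries, 23 were more than 2-fold higher in replicate 1 than in replicate 2 in both AngII groups, which 2.99% of all 7994 genes were. The median fold of replicate 1 over replicate 2 for the 31 genes was 3.48 before CMG and 8.46 after it, and for the 6 detected markers 4.17 and 13.4.

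In the adhesion receptors, the split was present in all 7 genes with enough counts. Clec1b, which encodes the platelet receptor for podoplanin, was at 186 and 53.2 CPM in AngII replicates 1 and 2 before CMG and at 138 and 15.3 CPM after it. Treml1, a receptor of the alpha granule membrane, was at 65.6 and 17.2 CPM before and at 63.5 and 4.73 CPM after. Itgb3, the beta subunit of the fibrinogen receptor, was at 65.8 and 8.94 CPM before and at 55.1 and 6.21 CPM after. In each of these genes the replicate 2 library after CMG was the lowest of the 4. Gp1ba, the subunit that binds von Willebrand factor, was at 30.7 and 4.39 CPM before and at 27.7 and 1.11 CPM after, a 7-fold and a 24.9-fold difference between replicates. Gp9, a further subunit of the same complex, was at 21.8 and 4.39 CPM before and at 24.1 and 1.63 CPM after. The split was smaller in Cd9, a tetraspanin (52.7 and 19.9 CPM, then 44.9 and 11.1 CPM), and in Itga6, a laminin receptor subunit (38.6 and 14 CPM, then 35.3 and 9.16 CPM). Leukocytes also express both, as they do P2rx1 and Alox12, whose split was wider.

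The granule and matrix proteins ranged from the widest split to none. Ppbp, a platelet chemokine precursor, was at 19.8 and 1.35 CPM before CMG and at 17.6 and 0.443 CPM after it, although its replicate 2 values rest on 8 and 6 counts. Pf4, the platelet chemokine that binds heparin, was at 442 and 143 CPM before and at 393 and 46.3 CPM after. Thbs1, which encodes thrombospondin, was at 16.7 and 1.52 CPM and then at 11.2 and 0.739 CPM. These 3 secreted proteins were all high in both replicate 1 libraries and low in both replicate 2 libraries. F13a1, the catalytic subunit of the fibrin cross-linking factor, was at 159 and 39 CPM before and at 126 and 9.53 CPM after. Clu, which encodes clusterin, was at 165 and 50.6 CPM before and at 142 and 14.1 CPM after. Vwf, the adhesive protein of platelets and endothelium, showed a narrower difference, with 40.1 and 13.8 CPM before and 44.9 and 8.43 CPM after. Tgfb1, a growth factor that leukocytes also express, did not split, with 21.0 and 17.7 CPM before and 23.3 and 20.9 CPM after.

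Among the receptors for nucleotides, P2rx1, an ATP-gated channel, was at 44.3 and 12 CPM before CMG and at 38.0 and 2.73 CPM after it. P2ry12, the ADP receptor that clopidogrel blocks, had 73 and 4 counts before and 24 and 8 after, and P2ry1 had between 2 and 20 counts in the 8 libraries. Of the enzymes of arachidonate metabolism, Ptgs1, the cyclooxygenase that aspirin inhibits in platelets, was at 26.5 and 7.43 CPM before and at 22.2 and 2.29 CPM after. Alox12, the platelet lipoxygenase, was at 90.1 and 17.7 CPM before and at 80.7 and 4.43 CPM after. Both enzymes thus followed the platelet receptors, while Tbxas1, thromboxane synthase, had 9 to 27 counts in these libraries and lay at 1.33 and 1.52 CPM before and 1.76 and 2.00 CPM after.

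The signalling and cytoskeletal genes fell into genes with the split and genes without it. Nrgn, which encodes a calmodulin-binding protein, was at 364 and 91.3 CPM before CMG and at 351 and 29.6 CPM after it. Myl9, a myosin regulatory light chain, was at 394 and 81.5 CPM before and at 343 and 26.4 CPM after. Mylk, the kinase that phosphorylates it, was at 54.6 and 13 CPM before and at 44.1 and 4.73 CPM after. Replicate 1 was again high and replicate 2 low at both times. Plek, a protein kinase C substrate of platelets and leukocytes, showed 69.7 and 19.2 CPM before and 65.4 and 16.6 CPM after. By contrast, Fermt3, the integrin activator kindlin, was at 52.2 and 30.9 CPM before and at 43.5 and 32.9 CPM after. Rasgrp2, which activates the small GTPase Rap, was at 39.7 and 35.6 CPM before and at 40.9 and 32.8 CPM after, and Bin2, a membrane-shaping protein, at 39.1 and 26.5 CPM and then at 35.5 and 29.2 CPM. Fermt3, Rasgrp2, Bin2, Tgfb1 and Tbxas1 were the 5 genes within 2-fold between replicates in both AngII groups, as were 79.6% of all genes. Leukocytes express all 5, but they also express F13a1, P2rx1, Plek, Clu, Alox12 and Itga6. Those genes were more than 2-fold higher in replicate 1 in both AngII groups. The share of leukocyte RNA in each gene was not measured, and its part in the split was not tested. Nfe2, a transcription factor of megakaryocytes and erythroid cells, was at 571 and 532 CPM before and at 561 and 255 CPM after.

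The split was not shared by the markers of other blood cells. Summed neutrophil markers were at 311 and 299 CPM before CMG and at 287 and 275 CPM after it. Summed monocyte markers were at 430 and 416 CPM and then at 542 and 538 CPM. T cell markers were at 161 and 182 CPM before and 102 and 140 CPM after, and B cell markers at 64.2 and 87.9 CPM before and 67.5 and 115 CPM after, so both were somewhat higher in replicate 2. Erythroid markers were at 30200 and 39200 CPM before and at 30300 and 19200 CPM after, with no common order of the replicates. The endothelial markers, 2 of 12 with a mean of at least 10 counts, lay between 11.5 and 16.9 CPM. Over all genes, the median size of the difference between replicates was 0.368 before and 0.404 after on the log2 scale, against 1.80 and 3.08 for the platelet genes. Neither the labels nor the study's methods say whether the same replicate number marks the same rat, and the labels give cardiac puncture for all libraries, those before CMG included.

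**Figure D1:**
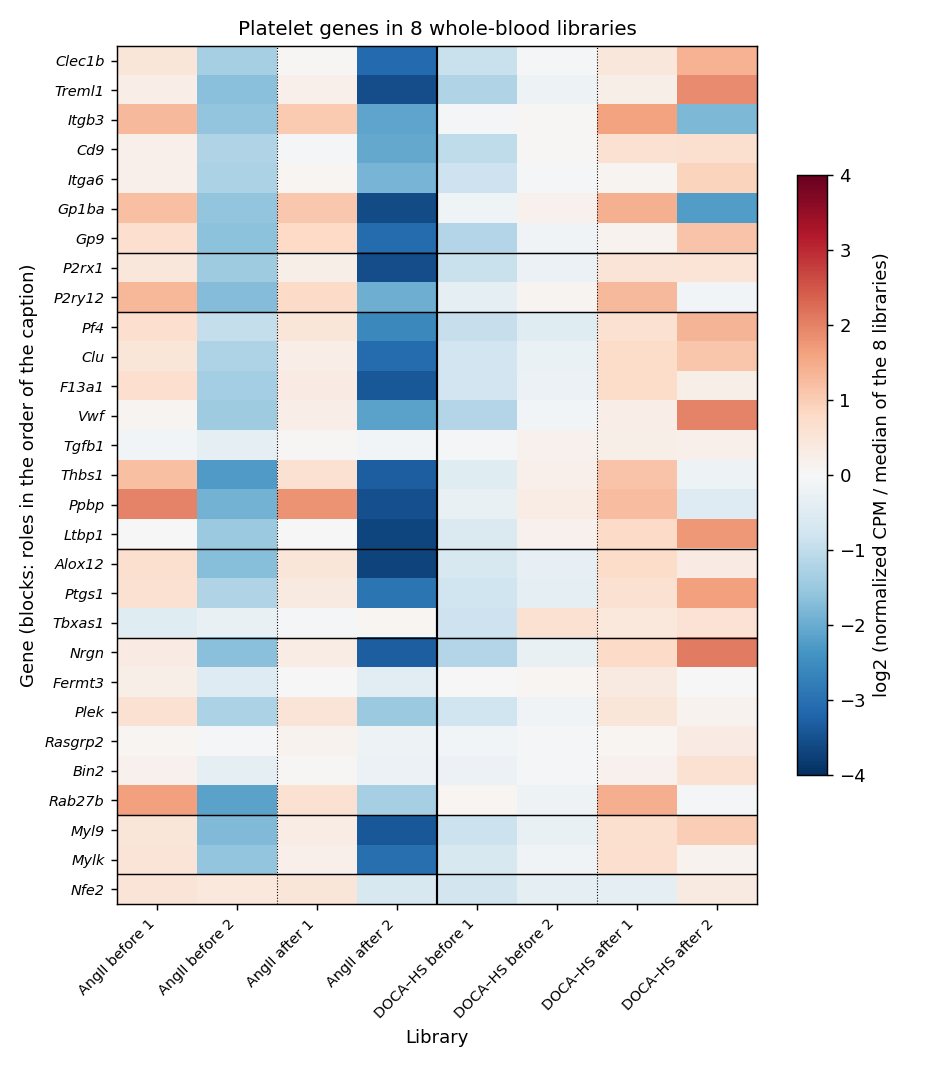
Platelet genes with a mean of at least 10 counts (rows) in the 8 libraries (columns), coloured by the log2 of normalized CPM over the median of the 8 libraries. Lines separate, from top to bottom, adhesion receptors, nucleotide receptors, granule and matrix proteins, arachidonate enzymes, signalling adaptors, cytoskeleton and the transcription factor. The AngII replicate 2 columns are blue for most genes at both times, and both DOCA–HS after columns are red for most genes, while Itgb3, Gp1ba, Ppbp, Thbs1, P2ry12 and Rab27b in replicate 2 and Nfe2 in replicate 1 are below their median.

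**Figure D2:**
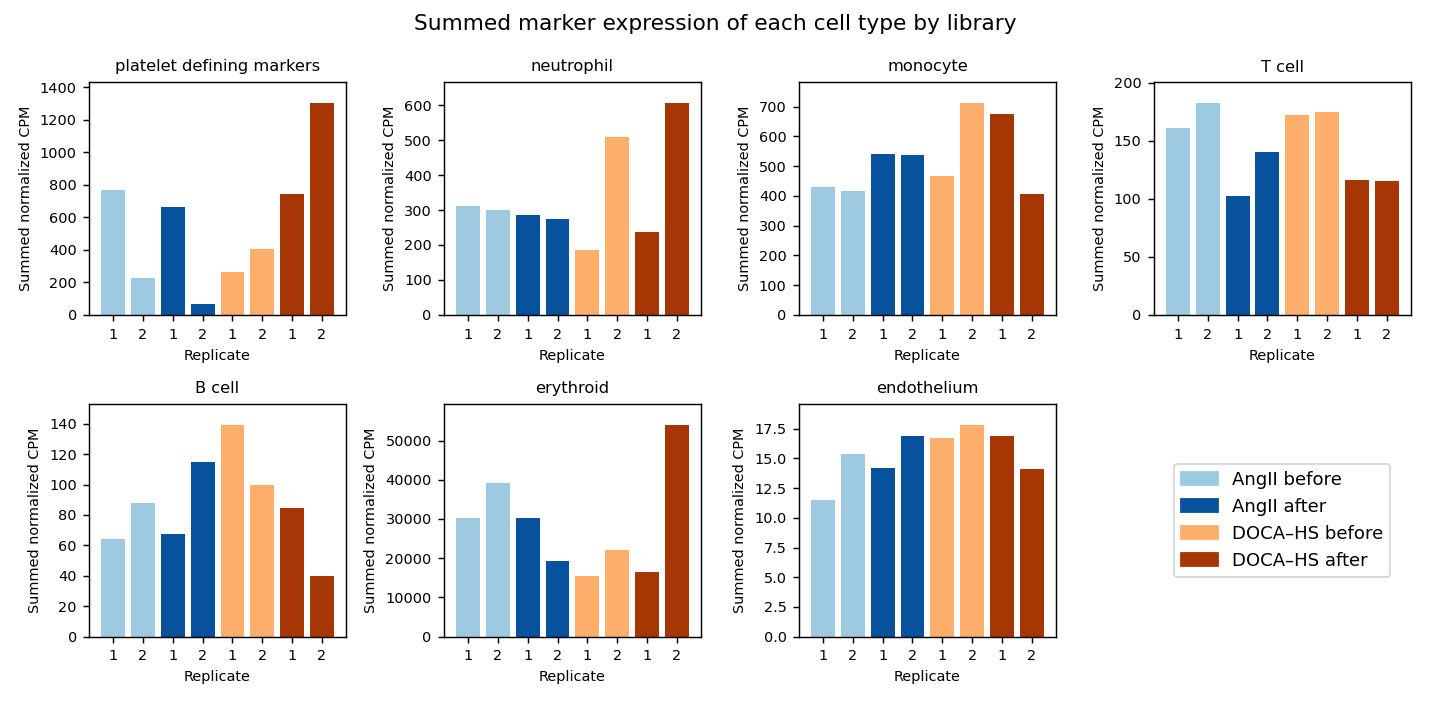
Summed normalized CPM of the markers of each cell type in each library, with the replicate number on the x axis and the 4 groups in colours. In the AngII groups the platelet sum is 766 and 224 CPM before and 663 and 69.5 CPM after CMG, while the neutrophil bars stay between 275 and 311 CPM.

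After against before CMG in the AngII model, no platelet gene was called higher or lower. A gene was called by the criterion of the study, by which the log2 fold change, up or down, exceeds 1.5 and the p-value before adjustment is 0.05 or less, here in edgeR's quasi-likelihood test. Of the 28 genes tested, 0 passed, against 0.903% of all 7201 genes called higher and 0.333% called lower. At an unadjusted p-value of 0.05 or less, 0 passed by edgeR, against 6.65% of all genes, and 0 by DESeq2, and the Benjamini-Hochberg adjusted p-values over all genes (edgeR) were 0.845 or more. The median log2 fold change of the platelet genes was -0.35, with 26 genes below 0 and 2 above, against -0.01 for all genes. Single values ranged from -0.83 for P2ry12 to 0.44 for Tbxas1, and Pf4 was at -0.40 (SE 0.898). The median SE of the platelet genes was 0.936 against 0.368 for all genes, so that this comparison could not show differences of moderate size in them. In 27 of the 28 genes the before and after libraries overlapped. Tbxas1 had both after libraries above both before libraries, as did 21.3% of all genes, and no platelet gene had both below, as did 18.5%. Of the markers of other cells, 0 of 11 erythroid genes tested were above 0, with a median of -0.49. By contrast, 9 of 10 monocyte genes were above 0, with a median of 0.815. The part of these cells in the platelet gene values was not tested.

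This comparison depended on which library entered. From the before to the after library of replicate 1, the median log2 difference of the 31 platelet genes was -0.16, and from that of replicate 2 it was -1.19. Across the numbers, the after library of replicate 1 stood 1.54 above the before library of replicate 2, while the after library of replicate 2 stood 3.25 below the before library of replicate 1 (a difference of -3.25). With AngII after replicate 1 left out, 22 of 29 genes were called lower, 19 of them with an adjusted p-value under 0.05 (edgeR), and the median log2 fold change was -2.9. Over all genes, that fit called 3.76% lower and gave 3.47% an adjusted p-value under 0.05. That fit assumes that the lone after library varies like the before libraries. With AngII before replicate 1 left out the median was 0.80, and with AngII before replicate 2 left out it was -1.05, with P2ry12 at -1.57.

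In the DOCA–HS model, 5 of the 31 platelet genes passed the criterion as higher after CMG, namely Nrgn, Treml1, Vwf, Ptgs1 and Pf4. These 5 of 31 genes are 16.1%, against 1.79% of all 7720 genes called higher. No platelet gene was called lower, against 0.259% of all genes. The fold change was above 0 in 30 of 31 genes, with a median log2 fold change of 0.99 against -0.04 over all genes. None of these calls held after adjustment, since every platelet gene had an adjusted p-value of 0.997 (edgeR). An unadjusted p-value of at most 0.05 was found for 7 of the 31 genes (22.6%) by edgeR, against 3.17% of all genes, and for 8 by DESeq2, with 0 after its adjustment. By the criterion of the study, DESeq2 called 6 of the 31 genes higher, against 2.73% of all genes. The 31 genes share libraries, and any difference in platelet RNA between blood samples would move most of them, so they do not count as 31 separate observations.

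Nrgn showed the highest log2 fold change of the platelet genes, with 129 and 237 CPM before and 489 and 1210 CPM after CMG. The log2 fold change was 2.23 (SE 0.743, unadjusted p = 0.0163 with edgeR). Treml1 was at 23.7 and 47.6 CPM before and at 64.8 and 204 CPM after, a log2 fold change of 1.92 (SE 0.694, unadjusted p = 0.0234 with edgeR). In both genes DOCA–HS after replicate 2 was by far the highest of the 4 libraries. Vwf was at 16.4 and 34.5 CPM before and at 44.8 and 148 CPM after, which gave 1.92 (SE 0.698, unadjusted p = 0.0240 with edgeR). Endothelial cells also make Vwf, and their markers, 2 of 12 with a mean of at least 10 counts, summed to 16.7 and 17.8 CPM before and 16.9 and 14.1 CPM after. Their part in the Vwf difference was not tested. Ptgs1 was at 9.85 and 13.4 CPM before and at 26.4 and 53.4 CPM after, a log2 fold change of 1.76 (SE 0.525, unadjusted p = 0.00925 with edgeR). Pf4 was at 148 and 198 CPM before and at 430 and 710 CPM after, a log2 fold change of 1.72 (SE 0.626, unadjusted p = 0.0238 with edgeR). For all 5 genes both after libraries lay above both before libraries.

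The same order was found in 20 of the 31 platelet genes (64.5%), against 14.7% of all genes, and 1 gene, Sparc, with 1 to 27 counts in a library, had both after libraries below, as did 21.1%. Among the adhesion receptors, Clec1b was at 71.2 and 129 CPM before and at 184 and 347 CPM after, with a log2 fold change of 1.42 (SE 0.619). Gp9 was at 6.09 and 12.5 CPM before and at 15.2 and 30.2 CPM after. Cd9 was at 22.8 and 47.1 CPM before and at 69.5 and 72.4 CPM after. These 3 genes had their after libraries above their before libraries without passing the criterion, as did Itga6, with 18.8 and 31.6 CPM before and 36.2 and 62.5 CPM after. P2rx1 was at 17.2 and 27.1 CPM before and at 45.8 and 46.4 CPM after, with after libraries close to each other. Of the granule proteins, Clu was at 69.5 and 98.4 CPM before and at 197 and 256 CPM after, with an unadjusted p-value of 0.0297 (edgeR) and a log2 fold change of 1.44, just short of the threshold. F13a1 was at 59.7 and 85.2 CPM before and at 168 and 119 CPM after. Alox12 was at 37.4 and 46.8 CPM before and at 96.7 and 72.4 CPM after, again with no overlap. The contractile genes had the same order, with Myl9 at 155 and 228 CPM before and 437 and 552 CPM after, and Mylk at 24.9 and 34.6 CPM before and 61.0 and 42.9 CPM after. Plek was at 26.5 and 41.5 CPM before and at 65.2 and 51.3 CPM after.

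Of the 25 genes with a mean of at least 50 counts, 6 did not show this order, Itgb3, Gp1ba, Thbs1, Ppbp, Fermt3 and Nfe2. Itgb3 was at 26.1 and 27.8 CPM before and at 81.4 and 7.73 CPM after, so its after libraries lay on both sides of the before libraries. Gp1ba was at 11.8 and 14.8 CPM before and at 35.2 and 2.81 CPM after, the second value from 4 counts. Thbs1 was at 5.26 and 8.39 CPM before and at 16.1 and 6.32 CPM after, and Ppbp was at 4.10 and 6.16 CPM before and at 11.8 and 3.51 CPM after. In Itgb3, Gp1ba, Thbs1 and Ppbp, DOCA–HS after replicate 1 was the highest of the 4 libraries and after replicate 2 was not above both before libraries. Some of the genes that leukocytes share had after values close to those before. Of those that follow, Rasgrp2, Tgfb1 and Bin2 nevertheless had both after libraries above both before libraries and belong to the 20 genes. Fermt3 was at 44.3 and 46.5 CPM before and 56.3 and 44.3 CPM after, Rasgrp2 at 34.9 and 35.3 CPM and then at 39.2 and 47.1 CPM, and Tgfb1 at 22.0 and 25.3 CPM and then at 26.4 and 26.0 CPM. Bin2 was at 29.2 and 33.8 CPM before and at 39 and 52.7 CPM after, and Nfe2 at 238 and 315 CPM before and 305 and 508 CPM after. Over the 16 genes that leukocytes also express, the median log2 fold change was 0.81, with all 16 above 0 and 1, Ptgs1, called. Over the 6 tested platelet markers it was 1.34 with 2 called, and the difference between these lists was not tested.

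**Figure D3:**
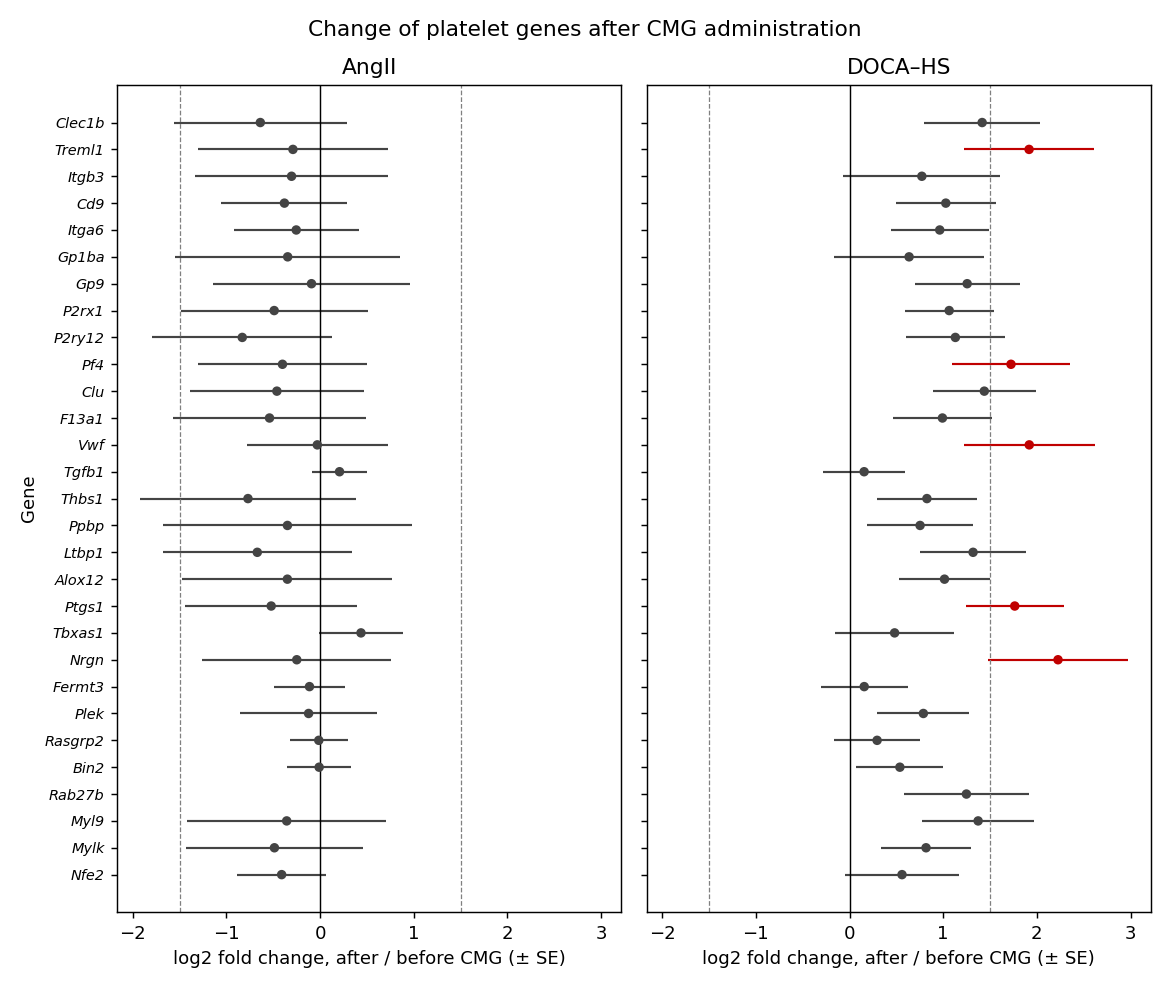
Log2 fold change after over before CMG for each platelet gene with a mean of at least 10 counts, in the AngII model (left) and the DOCA–HS model (right), with bars of 1 SE. Red marks genes called by the criterion, dashed lines mark log2 fold changes of 1.5 up and down, and Rab27b was not tested in the AngII model. The 5 red genes are all in the DOCA–HS panel.

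The call of these genes rested on the scaling and on the libraries. DOCA–HS after replicate 2 had the lowest TMM factor (0.343), and with total counts in place of TMM 0 platelet genes were called, the platelet median was 0.38 and the median of all genes was -0.76. Relative to all genes, the platelet genes then stood 1.14 higher, against 1.03 with TMM. With total counts outside hemoglobin, 1 gene was called and the platelet genes stood 1.07 above all genes. A change of scaling moves all genes of a library alike. The difference between platelet genes and all genes was therefore nearly fixed and does not bear on the lost calls. Over all genes the calls were 138 higher and 20 lower with TMM, 0 and 9 with total counts, and 20 and 12 with total counts outside hemoglobin. The number of platelet genes with both after libraries above both before libraries was 3 with total counts (1.4% of all genes) and 11 with total counts outside hemoglobin (6.46% of all genes). In the latter, 2 platelet genes had both after libraries below, as did 27.9% of all genes. With DOCA–HS after replicate 2 left out, the 5 calls were lost, with Nrgn at 1.42, Pf4 at 1.32, Ptgs1 at 1.21, Treml1 at 0.88 and Vwf at 0.83. In that fit Itgb3 was called with a log2 fold change of 1.6, against 1.15% of all genes called higher, the platelet median was 1.00, and 6 of 32 genes had an adjusted p-value under 0.05 (edgeR, the lone after library assumed to vary like the others), as did 1.42% of all genes. With after replicate 1 left out, 10 were called higher and 2, Itgb3 (-1.8) and Gp1ba (-2.23), were called lower, in a fit that called 7.46% of all genes higher and 13.6% lower. Leaving out before replicate 1 left no call, against 0.333% of all genes called higher, with the 5 genes at 1.48 to 1.85. Leaving out before replicate 2 left only Vwf (2.57), against 0.757% of all genes called higher, with the other 4 genes at 1.96 to 2.74.

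Other cell markers also differed between the DOCA–HS libraries. Platelet markers summed to 265 and 407 CPM before and 741 and 1300 CPM after, and to 0.131% and 0.162% and then 0.324% and 0.283% of the counts outside hemoglobin. Erythroid markers were at 15400 and 22200 CPM before and 16500 and 53900 CPM after, so only the after replicate 2 library stood apart, and 10 of 11 tested erythroid genes had a log2 fold change above 0, with a median of 0.55 and 0 called. Neutrophil markers were at 185 and 508 CPM before and 238 and 605 CPM after, with replicate 2 the higher at both times. Of 12 neutrophil genes tested, 4 had a log2 fold change above 0, with a median of -0.36 and a highest value of 0.85. Of the 12, 2 were called lower after CMG, against 0.259% of all genes, Lcn2 with 18 and 18 counts before and 0 and 1 after, and Ngp with 79 and 155 counts before and 6 and 5 after. B cell markers were at 139 and 100 CPM before and at 84.7 and 40.1 CPM after, and T cell markers at 172 and 175 CPM before and 116 and 115 CPM after, both with the after libraries below the before libraries. Monocyte markers were at 468 and 711 CPM before and at 674 and 405 CPM after. Their part in the platelet gene difference was not tested.

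The composition of the platelet reads differed between libraries, and DOCA–HS after replicate 2 stood apart in several genes. Counts of each gene were set against 100 counts of Pf4 in the same library, which needs no scaling between libraries. Itgb3 had 1.09 counts per 100 of Pf4 in DOCA–HS after replicate 2, against 6.26 to 18.9 in the other 7 libraries. Gp1ba had 0.396 against 2.40 to 8.18, and Ppbp, with 5 counts there, had 0.495 against 0.945 to 4.48. In this library these genes were thus low relative to Pf4, while others were high. Nrgn had 171 counts per 100 of Pf4 against 63.9 to 120 in the other libraries, Treml1 28.8 against 10.2 to 24.0, Vwf 20.9 against 9.09 to 18.2, and Ptgs1 7.52 against 4.95 to 6.76. As a share of all platelet gene counts, Itgb3 was 0.165% there (11 of 6684 counts, Wilson 95% interval 0.0919% to 0.294%) against 0.709% to 2.66% in the others, and Gp1ba 0.0598% (0.0233% to 0.154%) against 0.187% to 1.15%. The interval of Itgb3 lies below those of the other libraries, the lowest of which begins at 0.543%, while that of Gp1ba overlaps the interval of AngII after replicate 2 (0.114% to 0.309%). Ppbp was 0.0748% of the platelet gene counts there (0.032% to 0.175%), within counting error of the 0.075% in AngII after replicate 2. As shares, Nrgn, Treml1 and Vwf had intervals above those of the other libraries. The share of Ptgs1, 1.14% (0.909% to 1.42%), overlaps the interval of DOCA–HS after replicate 1 (0.778% to 0.96%). These intervals cover counting error only. In DOCA–HS after replicate 1, Itgb3 had 18.9 counts per 100 of Pf4 against 17.6 and 14.1 before CMG, and Gp1ba 8.18 against 7.95 and 7.46. Relative to Pf4, itself one of the 5 genes called higher, both after libraries lay below both before libraries in 17 of the other 30 tested platelet genes, 12 of the 16 that leukocytes share and 5 of the other 14. Over all genes tested 89.9% had this order, so it does not set these genes apart. Nfe2 had 70.9 and 71.6 counts per 100 of Pf4 after CMG against 160 and 159 before it, Rasgrp2 9.11 and 6.63 against 23.6 and 17.9, and Fermt3 13.1 and 6.24 against 29.9 and 23.5. Tgfb1 and Bin2 had the same order, with 6.15 and 3.66 against 14.8 and 12.8, and 9.06 and 7.43 against 19.7 and 17.1.

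The AngII replicate 2 libraries also differed in composition from the replicate 1 libraries in some genes. Ppbp had 0.945 counts per 100 of Pf4 before CMG and 0.958 after it, against 4.48 in both replicate 1 libraries. Gp1ba had 3.07 and 2.40 against 6.95 and 7.04. The ratios of Gp1ba and of Ppbp, from 8 and 6 counts in replicate 2, thus split by replicate number as the levels did. Myl9 had 57 and 57 in replicate 2 against 89.3 and 87.5 in replicate 1. In other genes the ratios differed less. Clec1b had 37.2 and 33.1 against 42.2 and 35.1, and Clu 35.4 and 30.5 against 37.3 and 36.1. Itgb3 had 6.26 counts per 100 of Pf4 in replicate 2 before CMG, while the other AngII libraries lay between 13.4 and 14.9, so this gene was low in 1 of the replicate 2 libraries only. Genes with little or no split in level were high relative to Pf4 in AngII after replicate 2, with 71.1 counts of Fermt3 against 11.1 in after replicate 1, 70.9 of Rasgrp2 against 10.4, 63.1 of Bin2 against 9.04 and 552 of Nfe2 against 143. Pf4 itself was 8.49-fold higher in after replicate 1, so these ratios restate the levels.

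**Figure D4:**
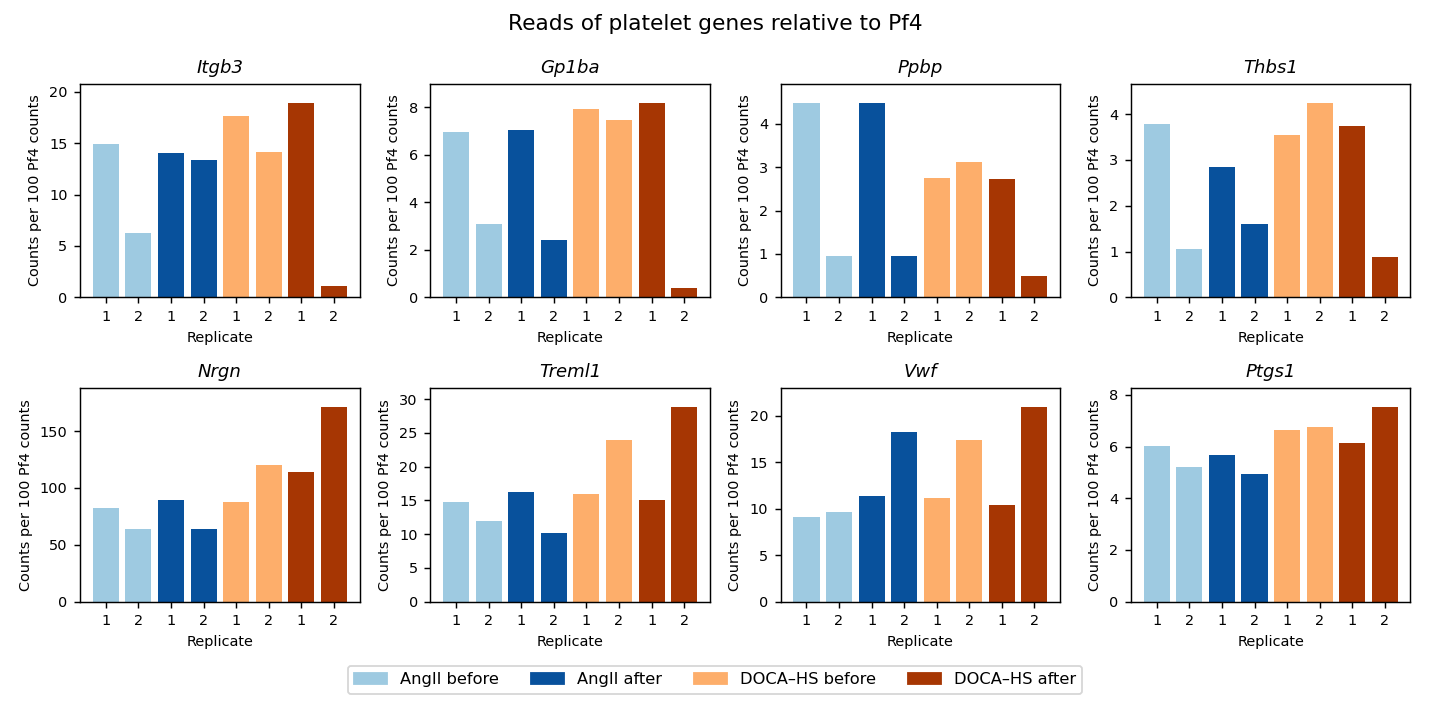
Counts of 8 platelet genes per 100 counts of Pf4 in each library, with the replicate number on the x axis and the groups in colours. DOCA–HS after replicate 2 has the lowest bar for Itgb3, Gp1ba, Ppbp and Thbs1 and the highest bar for Nrgn, Treml1, Vwf and Ptgs1.

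Between the models before CMG, no platelet gene passed the criterion. Of the 31 genes, 0 were called, against 0.425% of all 7994 genes called higher in DOCA–HS than in AngII and 0.413% called lower. The number of platelet genes with an unadjusted p-value of at most 0.05 was 0 by edgeR, against 3.38% of all genes, and 0 by DESeq2. The median log2 difference was -0.32, with 6 genes above 0, and over all genes it was 0.06. Pf4 was at 442 and 143 CPM in AngII and at 148 and 198 CPM in DOCA–HS, so the DOCA–HS libraries lay between those of AngII. The median turned to 0.30 with total counts in place of TMM, where all genes stood at 0.86, and to 0.88 with AngII before replicate 1 left out. Erythroid markers lay lower in DOCA–HS, with 0 of 11 tested genes above 0 and a median of -1.02. On the other side, 9 of 10 monocyte genes (median 0.54) and 7 of 9 B cell genes (median 0.61) were above 0. The part of these cells in the platelet gene values was not tested. Blood was collected at week 1 of AngII and at week 3 of DOCA–HS treatment, and the week and the model cannot be told apart.

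In edgeR with the low-count filter, the change after CMG also did not pass the criterion for a difference between the models. The difference in change, tested as an interaction over all 8 libraries with edgeR, was above 0 (higher in DOCA–HS) in 29 of the 31 genes, with a median of 1.37 on the log2 scale against -0.12 over all genes. Erythroid markers lay on the same side, with 11 of 11 tested genes above 0 and a median of 1.17 (0.79 to 1.71), while B cell markers lay on the other side, with 0 of 9 above 0, a median of -1.11 and 1 gene, Ms4a1, called lower. The part of other cells in the platelet gene values was not tested. Of the 31 platelet genes, 0 were called, against 2.25% of all genes called higher and 0.913% called lower, and 0 reached an unadjusted p-value of 0.05, against 3.74% of all genes. By DESeq2, Pf4 and Ptgs1 reached it and were called higher, against 3.6% of all genes. In edgeR without a filter, 14 of 34 platelet genes were called higher, against 3.7% of all genes. The value was 2.13 for Pf4 (SE 1.21, adjusted p = 0.881 with edgeR), 2.48 for Nrgn (SE 1.41) and 2.27 for Ptgs1 (SE 1.22). This comparison uses the libraries of both models and so is not separate from the comparisons above. With AngII after replicate 1 left out, 22 of 32 genes were called higher, against 6.2% of all genes, and the median was 3.67, and with AngII before replicate 2 left out 3 were called higher, against 1.59% of all genes. With AngII before replicate 1 left out, the median was 0.18.

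Another 4 lists held platelet genes outside the 39, and calls in them are read beside those over all genes, 0.903% higher in the AngII and 1.79% higher in the DOCA–HS comparison. Of the genes of platelet activation signalling, 44 were tested, and 2 were called higher after CMG in the AngII model, Plcb3, a phospholipase C (log2 fold change 1.95, 9 and 2 counts before and 15 and 28 after), and Rap1gap2, a Rap inactivator (1.71). The list's median was 0.08 in AngII and 0.09 in DOCA–HS rats, with 0 called in the latter. Of 25 genes of granule formation and release, Hps3, a lysosome-related organelle gene, was called higher in the AngII model (1.63), and the medians were 0.05 and 0.01. Hps3 had 22 and 10 counts before and 22 and 91 after, so most of its reads came from 1 library. Of 13 genes of megakaryocyte transcription and cytokine signalling, 0 were called, with medians of -0.35 in AngII and 0.15 in DOCA–HS rats. The 22 further cytoskeletal genes included Cald1, which encodes the actin-binding protein caldesmon, with 49 and 43 counts before and 94 and 53 after CMG in the DOCA–HS model. Cald1 was called higher there (log2 fold change 2.53, SE 0.774), 18 of the 22 genes were above 0, and the list's median was 0.74, against -0.11 in the AngII model. The 53 counts of Cald1 came from after replicate 2, with 651764 counts outside hemoglobin against 2977427 in after replicate 1. Its fold change thus rests largely on that shallow library.

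Among the platelet genes themselves, likeness was measured as the correlation of log2 CPM over the 8 libraries with the mean of the other platelet markers, as a description. It was highest for P2rx1 (Pearson's r of 0.992), Alox12 (0.991), F13a1 (0.990), Mylk (0.988) and Myl9 (0.987). It was 0.730 for both Itgb3 and Gp1ba, 0.508 for Nfe2 and 0.241 for Tbxas1. Outside the 39 genes, 2602 genes had at least 10 counts in every library, and those most like the markers included Slc24a3 (0.994), Ptpn11 (0.993), Ly6g6f (0.992), Tsc22d1 (0.988), Ppif (0.988), Pla1a (0.987), Stau2 (0.987) and Prkar2b (0.985). Ly6g6f, a surface protein of platelets, was at 38.1 and 7.59 CPM before and 33.6 and 2.59 CPM after CMG in the AngII model, and at 10.3 and 22.5 CPM and then 28.8 and 38.6 CPM in the DOCA–HS model. In the AngII model it thus had the high replicate 1 and low replicate 2 of the platelet markers. The 8 points share libraries and scaling, and 2 of them, the AngII replicate 2 libraries, were the lowest for most of these genes.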

How the data were processed

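RNA of whole blood was sequenced in 8 libraries, 2 per group. Alignment by the authors used HISAT2 and the rn6 assembly, HTSeq v2.0.3 counted reads by strand, and the authors deposited whole-number counts per gene without normalization. The authors state that hemoglobin annotations were removed before counting, while Hbb and LOC100134871, the latter taken here as a hemoglobin gene, hold most of the deposited counts. The 0 counts of 5754 genes were left in the file, and 0 columns were unused.

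Each model's 4 libraries had a fit of their own, and comparisons between models used all 8 libraries with 4 group means, with edgeR 4.0.16 in R 4.3.3 (filterByExpr, TMM, quasi-likelihood test). The authors used DESeq2, which was an alternative here (version 1.42.0). A gene was called where the log2 fold change exceeded 1.5 up or down at an unadjusted p-value of 0.05 or less. Benjamini-Hochberg adjustment ran over all genes tested, and 2 was the prior count of log2 CPM. The computation was tested on simulated data.

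The genes and lists (roles, platelet markers, genes shared with leukocytes, 4 further platelet lists, and markers of neutrophils, monocytes, T cells, B cells, erythroid cells and endothelium) were chosen with earlier results of these data known. Every platelet gene found among the counts could be named, with values per library where the mean count was 50 or more, together with the genes of the 4 further lists that passed the criterion and the 10 genes most like the markers, of which 2 are not reported here. The libraries were taken as unpaired. The chi-square of the spread within a group, set against counting error alone, was 15.4 to 94.6 per degree of freedom. The source of that spread was not tested. Alternatives were DESeq2, its size factors, total counts with and without hemoglobin, other filters, the replicate number as a block, 1 fit of all libraries, and each library left out in turn.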

Additional observations from a re-analysis of the deposited data

How the results depend on the processing

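Depth limits the lowest library, DOCA–HS after replicate 2, with 651764 counts outside hemoglobin. In the AngII model the count of platelet genes called lower, 0, was 0 to 22 with single libraries left out (0.434% to 3.76% of all genes), and the median log2 fold change was -2.9 to 0.80. Under the other alternatives it stayed at 0 called, with medians of -0.51 to -0.23. In the DOCA–HS model, 5 of 31 genes called higher became 0 with total counts (median 0.38), as over all genes, 1 with total counts outside hemoglobin (median 0.66), against 0.259% of all genes, 1 of 22 with at least 10 counts in every library, against 1.16%, and 1 of 31 with all 8 libraries in 1 fit, against 1.76%, where the lost genes kept 1.72 to 2.22. With single libraries left out 0 to 10 were called higher (0.333% to 7.46% of all genes, medians 0.71 to 1.23) and 0 to 2 lower (0.0256% to 13.6%). The cause was not tested. Of single genes, 31 calls were lost and 10 gained over the alternatives of this model. Before CMG, 1 gene, P2ry1, was called higher in DOCA–HS with total counts outside hemoglobin, where 3.49% of all genes were, and medians ran from -0.99 to 0.88 with single libraries left out. For the difference in change, 2 genes were called higher with DESeq2, against 3.6% of all genes, 14 without a filter, against 3.7%, and 0 to 22 with single libraries left out (0.553% to 8.83% of all genes, medians 0.18 to 3.67). None of the 5 DOCA–HS calls turned its direction under these alternatives, while Itgb3, not among them, was called higher (1.6) without after replicate 2 and lower (-1.8) without after replicate 1. With the replicate number as a block, 0 platelet genes of the AngII model (median -0.51) and 5 of the DOCA–HS model (median 1.00, against 1.5% of all genes) were called, while among all AngII genes 165 had an adjusted p-value under 0.05 (edgeR), against 0 without the block. Deviations from the group means of same-numbered libraries correlated at 0.453 for AngII and 0.27 for DOCA–HS over all genes and at 0.873 and 0.357 over the platelet genes. Across the models, where same-numbered libraries came from different rats, the values ran from -0.149 to 0.227 over all genes. Over the platelet genes they ran from -0.317 to 0.499, so the DOCA–HS values lie near the range across models. With 2 pairs a model, and no label that ties a number to a rat, it is not known whether same-numbered libraries came from the same rat.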
